A study of Mus musculus with 6 samples.

Results

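Genes of cholesterol synthesis and of its control by the transcription factor Srebp2 were compared between 3 normal livers and 3 liver tumors of male C3H/HeN mice aged 74 to 75 weeks. The set was given as a list of 27 genes, taken in the order of the pathway, and each gene was found through the symbol or accession of its probes. All 27 genes had at least 1 probe on the array, 42 probes in all. A gene was tested when it had a probe that every array of 1 group, or of both, measured well above background, which held for 39 of the 42 probes and for 26 of the 27 genes, out of 18567 genes tested on the whole array. The animals of both groups were F2 offspring of the untreated arm of a breeding project on arsenic exposure during gestation, and were kept on the CA-1 diet with tap water. The tumors carried a Ha-ras mutation, a change that activates Ras signaling and is common in liver tumors of this strain. Total RNA of each tissue was labeled with Cy3 and hybridized to 1 SurePrint G3 Mouse GE array, a 1-color oligonucleotide array. Nothing in the labels states that the samples came from separate animals. The p-values therefore rest on the spread between samples within each group, which may not be that between animals.

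Cholesterol is made from acetyl-CoA through HMG-CoA and mevalonate, which is turned into prenyl diphosphates, squalene, lanosterol and, after a series of reductions and demethylations, cholesterol. Srebp2, the product of Srebf2, is held in the endoplasmic reticulum with its escort Scap by the Insig proteins while sterols are plentiful. When sterols fall it travels to the Golgi, is cut by 2 proteases and switches on nearly every gene of the pathway, so that these genes tend to move as a group, and liver is a main site of this synthesis in the body.

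Promoter windows of the genes were also examined, and their matches were not related to the changes on the arrays by a test. RefSeq windows of GRCm38.p6, each reaching from 250 bases before to 50 bases after a start site, were at hand for 23 of the 27 genes, while Fdps, Fdft1, Sqle and Stard4 had no entry. In each window 3 letter patterns were searched on both strands: TCACNCCAC for the sterol regulatory element that binds Srebp, CCAAT for the box that binds NF-Y, and GGGCGG for the box that binds Sp1. A CCAAT match was found in 21 of the 23 genes, against 41.1% of all 27025 genes with a window, and was not found in Acat2 or Scap. A GGGCGG match was found in 20 of the 23 genes, against 38.2% of all genes. The pattern TCACNCCAC was found in the window of Hmgcs1 alone among the 23, against 1.44% of all genes. A match of letters is a description of the window and not a binding site, and a window without a match may hold a site of other letters. The shares are of all genes with a window, whether tested on the array or not, and were not compared by a test. The windows of 4 genes are printed 5′ to 3′ on the strand of the gene, with every match to a pattern or its reverse complement in capitals, and in these windows no match overlapped another. Hmgcs1 is shown as the gene that held all 3 patterns (chr13:119690101-119690400, plus strand), Lss as the gene with the largest rise (chr10:76531355-76531654, plus strand), Insig1 as a feedback gene of the pathway (chr5:28071162-28071461, plus strand) and Acat2 as the gene that fell most (chr17:12960676-12960975, minus strand).
Hmgcs1: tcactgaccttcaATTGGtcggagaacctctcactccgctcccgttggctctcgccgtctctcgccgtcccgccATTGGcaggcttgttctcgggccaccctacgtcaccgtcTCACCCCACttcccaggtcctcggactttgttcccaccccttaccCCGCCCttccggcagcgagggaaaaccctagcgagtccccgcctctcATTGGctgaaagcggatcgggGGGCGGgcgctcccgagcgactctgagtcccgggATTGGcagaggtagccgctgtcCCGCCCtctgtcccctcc
Lss: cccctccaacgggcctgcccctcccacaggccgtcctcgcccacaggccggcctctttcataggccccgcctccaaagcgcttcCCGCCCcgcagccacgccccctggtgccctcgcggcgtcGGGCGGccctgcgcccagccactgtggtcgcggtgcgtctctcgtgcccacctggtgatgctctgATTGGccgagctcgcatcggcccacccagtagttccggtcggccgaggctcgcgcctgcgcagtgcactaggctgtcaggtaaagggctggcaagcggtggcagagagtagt
Insig1: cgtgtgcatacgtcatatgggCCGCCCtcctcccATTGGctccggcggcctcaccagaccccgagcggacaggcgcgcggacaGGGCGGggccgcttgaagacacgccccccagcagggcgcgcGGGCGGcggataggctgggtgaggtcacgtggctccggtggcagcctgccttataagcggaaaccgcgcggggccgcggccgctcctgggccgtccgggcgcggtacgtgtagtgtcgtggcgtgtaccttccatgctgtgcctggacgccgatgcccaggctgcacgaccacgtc
Acat2: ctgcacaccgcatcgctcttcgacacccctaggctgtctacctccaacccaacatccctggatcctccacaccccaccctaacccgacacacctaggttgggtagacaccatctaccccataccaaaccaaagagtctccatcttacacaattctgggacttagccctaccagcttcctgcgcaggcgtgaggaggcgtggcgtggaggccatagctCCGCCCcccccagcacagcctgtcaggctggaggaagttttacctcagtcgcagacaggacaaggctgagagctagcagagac

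Most enzymes of cholesterol synthesis were higher in the liver tumors. Of the 26 tested genes, 16 (61.5%) were called by limma at an adjusted p under 0.05, when 34.2% of all tested genes were called. The calls were higher in tumors for 14 genes, against 13.1% of all genes, and lower for 2 genes, against 21.0% of all genes. The genes that rose were Hmgcs1, Mvk, Pmvk, Mvd, Fdps, Fdft1, Sqle, Lss, Cyp51, Lbr, Nsdhl, Hsd17b7, Sc5d and Dhcr7, and those that fell were Acat2 and Mylip. The median log2 fold change, tumor minus normal liver, was 0.77 over the 26 genes and -0.13 over all tested genes. All 3 tumors lay above all 3 normal livers in 17 of the 26 genes, which held for 18.3% of all genes, and below them in 4 genes, which held for 33.5% of all genes. The groups overlapped in Tm7sf2, Msmo1, Scap, Insig2 and Stard4. Expression values are given below as the signal divided by the 75th percentile of its array, a linear scale on which 1 is that percentile. They compare arrays for the same probe and not the levels of different genes.

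**Figure D1:**
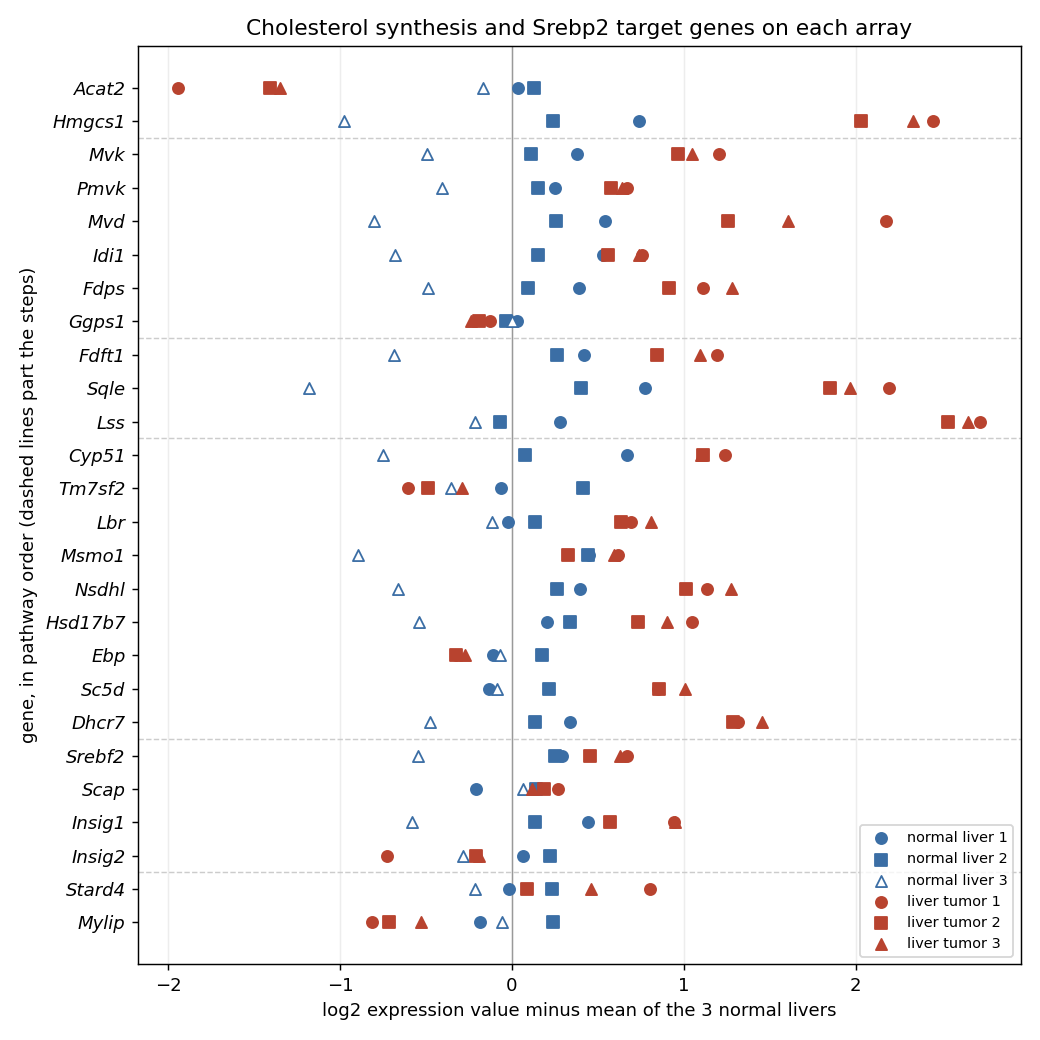
Expression of the 26 tested genes on each of the 6 arrays, as the log2 expression value minus the mean of the 3 normal livers for that gene (horizontal axis), with the genes in pathway order from top to bottom (vertical axis). Each point is 1 array, blue for normal liver and red for liver tumor, and the open triangle is normal liver 3. The red points lay to the right of all blue points in 17 genes, and the open triangle was the leftmost blue point in 21 genes.

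The 2 genes that lead from acetyl-CoA to HMG-CoA changed in opposite directions. Acat2, the cytosolic thiolase that joins 2 molecules of acetyl-CoA, had expression values of 113, 120.3 and 98.0 in the normal livers and 28.7, 41.4 and 43.1 in the tumors. The groups did not overlap, and it fell by 1.57 on the log2 scale (SE 0.19, limma adjusted p = 0.00243), a 2.96-fold lower level. A neighboring gene of near-identical sequence, Acat3, was measured by its own probe and also fell, as described with the wider lists, so signal shared between the pair cannot be told apart. Hmgcs1, the cytosolic synthase that makes HMG-CoA for the pathway, had values of 69.8, 49.4 and 21.3 in the normal livers and 228.3, 171.3 and 211.2 in the tumors. Every tumor stood far above the highest normal liver, and the normal livers themselves spanned a wider range than the tumors. Hmgcs1 rose by 2.27 on the log2 scale (SE 0.42, limma adjusted p = 0.00943), a 4.83-fold change.

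In the next stretch, from mevalonate to the prenyl diphosphates, 4 of 6 genes rose. Mvk, the kinase that acts on mevalonate, had values of 36.9, 30.8 and 20.2 in the normal livers and 65.5, 55.6 and 58.8 in the tumors (log2 fold change 1.07, SE 0.23, limma adjusted p = 0.0150). Pmvk, the kinase of the following step, moved less, from 80.5, 75.1 and 51.0 to 107.3, 100.9 and 105.2 (log2 fold change 0.63, SE 0.19, limma adjusted p = 0.0434). Mvd, the decarboxylase that makes isopentenyl diphosphate, was at 4.22, 3.46 and 1.66 in the normal livers and at 13.1, 6.92 and 8.82 in the tumors, with tumor 1 clearly the highest (log2 fold change 1.68, SE 0.39, limma adjusted p = 0.0204). All 3 genes had normal liver 3 as their lowest sample. Idi1, the isomerase that interconverts isopentenyl and dimethylallyl diphosphate, had values of 71.4, 55.0 and 30.9 against 83.7, 72.8 and 82.6. Its tumors lay just above the highest normal liver, but its log2 fold change of 0.68 had a 95% interval from -0.03 to 1.40 and did not pass (limma adjusted p = 0.125). Fdps, which makes farnesyl diphosphate, had 148.4, 120.5 and 80.7 in the normal livers and 244.5, 212.9 and 274.2 in the tumors, a rise of 1.10 on the log2 scale (SE 0.24, limma adjusted p = 0.0155). Ggps1, which extends farnesyl to geranylgeranyl diphosphate and so leads away from sterols, had close values at 1.65, 1.58 and 1.61 against 1.48, 1.41 and 1.37 (log2 fold change -0.18, 95% interval -0.42 to 0.05, limma adjusted p = 0.196).

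The 3 genes that make squalene and close it to lanosterol all rose, with a median log2 fold change of 2.003. Fdft1, the squalene synthase at the first step committed to sterols, had values of 16.1, 14.3 and 7.46 in the normal livers and 27.4, 21.5 and 25.6 in the tumors (log2 fold change 1.04, SE 0.30, limma adjusted p = 0.0379). Sqle, the squalene epoxidase that uses the first oxygen of the pathway, was at 39.6, 30.5 and 10.2 in the normal livers and at 105.6, 83.2 and 90.4 in the tumors. Its normal livers spread more than those of any other tested gene of the set, and its log2 fold change of 2.003 carried an SE of 0.48 (limma adjusted p = 0.0226). Lss, the cyclase that folds the epoxide into lanosterol, had the largest rise of the 26 genes. Its values were 3.38, 2.65 and 2.39 in the normal livers and 18.4, 16.1 and 17.5 in the tumors, a 6.23-fold change (log2 2.64, SE 0.16, limma adjusted p = 2.02e-04). The study had listed Lss for less methylation near its start site together with higher expression in tumors. That expression came from these same samples, so the rise here is not independent evidence of a direction.

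Between lanosterol and cholesterol, 6 of 9 genes rose and the other 3 did not pass. Cyp51, the lanosterol demethylase, was at 3.87, 2.57 and 1.45 in the normal livers and at 5.74, 5.26 and 5.20 in the tumors (log2 fold change 1.15, SE 0.34, limma adjusted p = 0.0417). The reductases of the following double bond, Tm7sf2 and Lbr, differed from each other. Tm7sf2 had 141.3, 197.2 and 115.7 in the normal livers and 97.1, 105.4 and 121.1 in the tumors, with overlapping groups and a log2 fold change of -0.46 (95% interval -0.97 to 0.05, limma adjusted p = 0.143). Lbr, which is also a protein of the inner nuclear membrane, had 1.30, 1.45 and 1.22 against 2.13, 2.04 and 2.31, and rose by 0.71 on the log2 scale (SE 0.12, limma adjusted p = 0.00664). Of the enzymes that remove the methyl groups at carbon 4 of the ring, Msmo1, the oxidase, had 112, 111.7 and 44.2 in the normal livers and 125.9, 102.8 and 123.8 in the tumors. Its groups overlapped, and its log2 fold change of 0.51 (95% interval -0.37 to 1.40, limma adjusted p = 0.326) became 0.07 without normal liver 3. Nsdhl, the dehydrogenase of the same complex, rose from 5.77, 5.25 and 2.77 to 9.61, 8.82 and 10.6 (log2 fold change 1.14, SE 0.28, limma adjusted p = 0.0246). Hsd17b7, its ketoreductase, rose from 7.71, 8.45 and 4.60 to 13.8, 11.1 and 12.5 (log2 fold change 0.89, SE 0.24, limma adjusted p = 0.0333).

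The last enzymes of the route differed in the same way. Ebp, the sterol isomerase, was at 325.8, 396.4 and 334.9 in the normal livers and at 280.6, 280.4 and 290.9 in the tumors. The tumors lay below every normal liver, but the log2 fold change of -0.31 did not pass (95% interval -0.59 to -0.02, limma adjusted p = 0.0915). Sc5d, the desaturase that follows it, had 57.0, 72.5 and 58.8 against 112.5, 113.2 and 125.3, a rise of 0.90 on the log2 scale (SE 0.13, limma adjusted p = 0.00465). Dhcr7, the reductase that turns 7-dehydrocholesterol into cholesterol, had 8.41, 7.28 and 4.78 against 16.5, 16.2 and 18.2, and its log2 fold change was 1.35 (SE 0.22, limma adjusted p = 0.00605).

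None of the 4 genes of sterol sensing passed the test after adjustment by limma, although all 4 were well above background on every array. Srebf2 itself had values of 1.52, 1.48 and 0.853 in the normal livers and 1.98, 1.70 and 1.93 in the tumors, so that the tumors lay above the normal livers (log2 fold change 0.58, 95% interval 0.01 to 1.16, limma adjusted p = 0.107). Scap, the escort, was at 47.8, 60.9 and 57.7 against 66.6, 62.8 and 59.9, with a log2 fold change of 0.19 (95% interval -0.12 to 0.50, limma adjusted p = 0.299). Insig1, both a retention protein and a classical Srebp target, had 12.5, 10.1 and 6.14 in the normal livers and 17.7, 13.6 and 17.7 in the tumors. Its groups did not overlap and its log2 fold change of 0.82 had a 95% interval of 0.17 to 1.48, with a limma adjusted p of 0.0602. Insig2, the retention protein that is not driven by Srebp2 in liver, had 78.7, 87.9 and 61.9 against 45.6, 65.3 and 66.0, with overlapping groups (log2 fold change -0.37, 95% interval -0.86 to 0.11, limma adjusted p = 0.202). Before adjustment, 2 of the 4 had a p under 0.05, Srebf2 and Insig1. Srebf2 passed the adjusted threshold in 2 of 16 alternatives, normexp background correction and spike-in scaling. Insig1 passed in 6 of the 16, these and quantile normalization, the filter on all 6 arrays, eBayes with a trend and the fit without normal liver 1. None of the 4 met the criteria of the study's methods. Over 16 alternatives the adjusted p ran from 0.0453 to 0.223 for Srebf2 and from 0.0126 to 0.149 for Insig1.

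Of the genes of transport and uptake 1 fell, 1 did not pass and 1 was not tested. Stard4, a carrier of sterol between membranes, had 17.7, 21.0 and 15.4 in the normal livers and 31.3, 19.0 and 24.6 in the tumors, with overlapping groups (log2 fold change 0.45, 95% interval -0.06 to 0.96, limma adjusted p = 0.150). Mylip, a ubiquitin ligase induced by the oxysterol receptors LXR that limits lipoprotein uptake, was at 1.84, 2.47 and 2.01 against 1.19, 1.27 and 1.45. All tumors lay below the normal livers, and Mylip fell by 0.69 on the log2 scale (SE 0.15, limma adjusted p = 0.0170). It was called in 12 of 16 alternatives, over which the limma adjusted p ran from 0.0101 to 0.187, the highest with spike-in scaling. The call was lost with that scaling, without the filter on dim probes, and without normal liver 2 or tumor 2. Npc1l1, the sterol importer of intestine and, in humans, of the bile canaliculus, was not tested. It rose well above background in 0 of 3 normal livers and in 2 of 3 tumors. Its values in tumors 1, 2 and 3 were 0.110, 0.145 and 0.580, 1 of them not well above background. The mean of all 3 tumors was at least 1.62-fold above the level that could be measured in the normal livers. The bound rested on tumor 3, and without it the other tumors gave none, since their mean lay under that level.

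**Figure D2:**
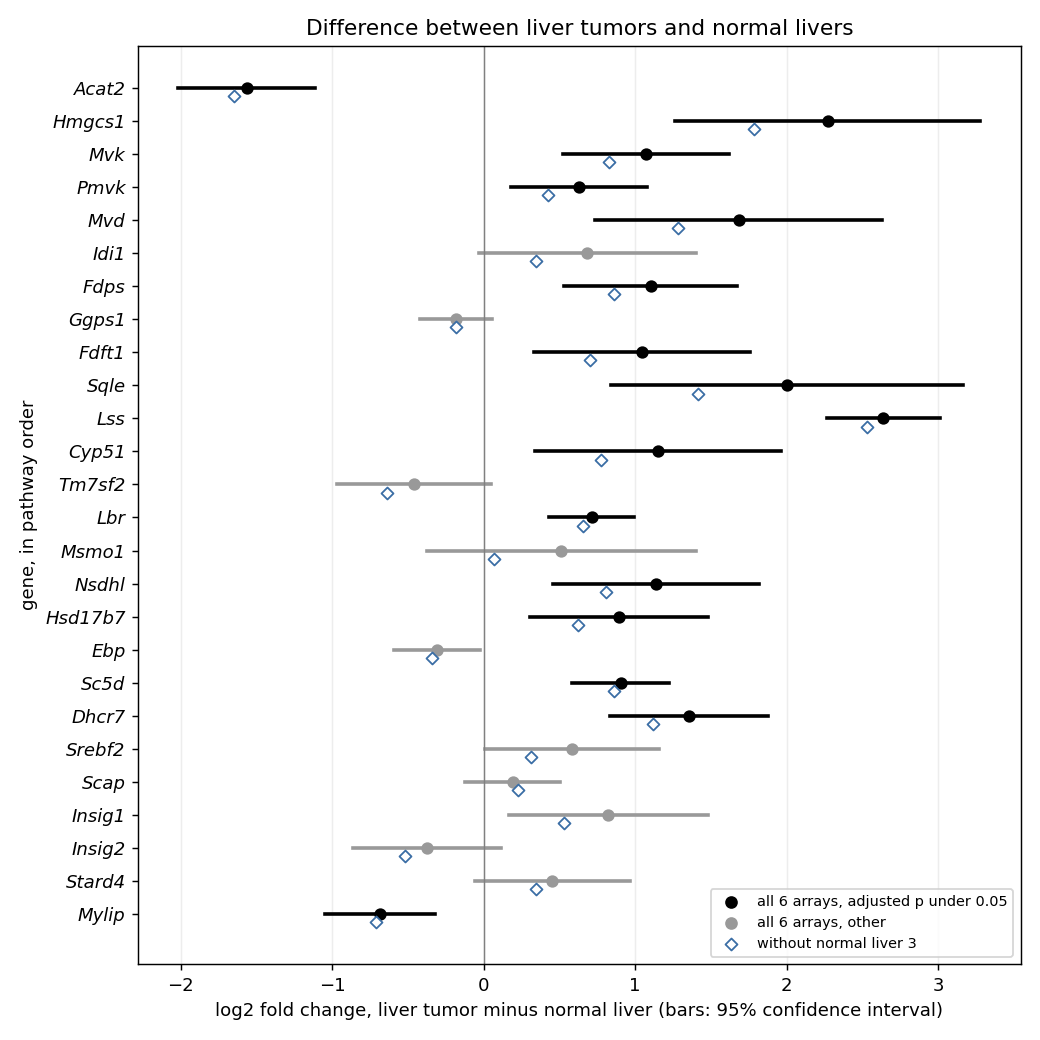
Log2 fold change, liver tumor minus normal liver, of the 26 tested genes (horizontal axis) in pathway order (vertical axis), with bars for the 95% confidence interval from limma over the 6 arrays. Black points passed an adjusted p under 0.05 and grey points did not, and open diamonds give the log2 fold change without normal liver 3. Lss stood at 2.64 and Acat2 at -1.57, the ends of the range, and without normal liver 3 the median moved from 0.77 to 0.58.

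The normal livers differed more from each other in these genes than the tumors did, and 1 sample stood apart. Normal liver 3 was the lowest normal liver in 21 of the 26 genes, when it was the lowest in 35.9% of all tested genes. It lay at least 1.5-fold below the mean log2 value of the other 2 normal livers in 15 of the 26 genes, which held for 6.06% of all genes. The shortfall ran from 1.52-fold for Pmvk to 3.40-fold for Sqle, with 2.76-fold for Hmgcs1, 2.53-fold for Msmo1 and 2.30-fold for Mvd among the others. Over the 26 genes the median log2 difference of normal liver 3 from the mean of normal livers 1 and 2 was -0.72, against -0.00 over all genes, and between normal livers 1 and 2 it was 0.08. Scap was the single gene of the 26 that was higher in normal liver 3 than the mean of the other 2. It was also close to the others in Ggps1, Mylip, Ebp and Sc5d, where it was 1.002-fold, 1.06-fold, 1.07-fold and 1.09-fold below. The SD of the log2 values was larger among normal livers than among tumors in 22 of the 26 genes, against 45.4% of all genes, and its median was 0.43 in normal livers and 0.14 in tumors, against 0.16 and 0.18 over all genes.

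**Figure D3:**
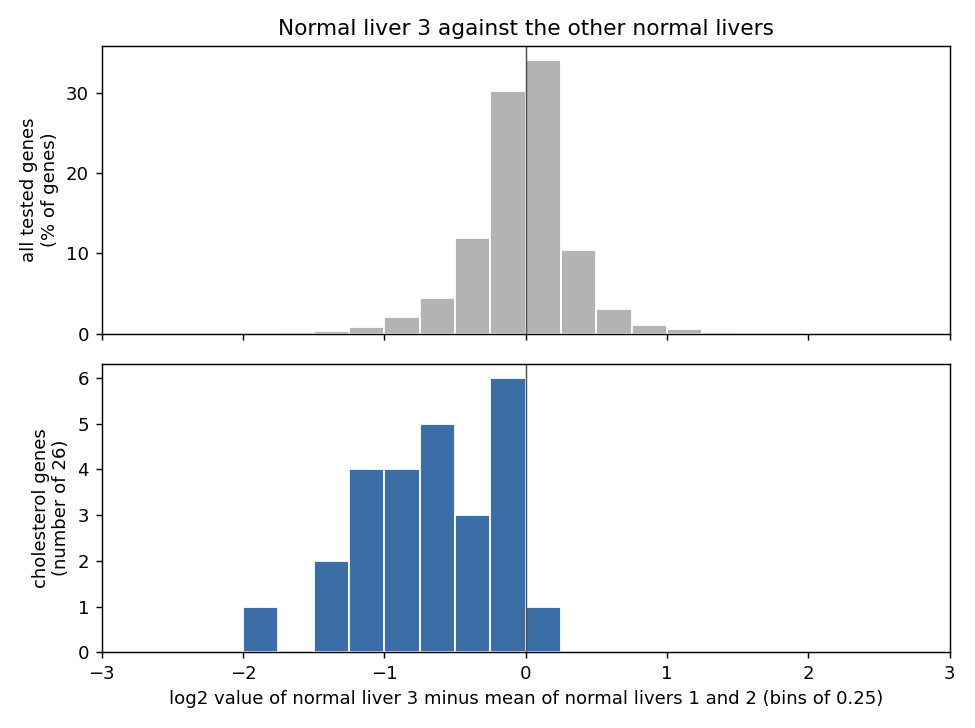
Difference of normal liver 3 from the other normal livers, as its log2 value minus the mean of normal livers 1 and 2 (horizontal axis, bins of 0.25, differences beyond 3 placed in the end bins). The upper panel gives all tested genes as a percent of genes and the lower panel the 26 cholesterol genes as a number of genes. The cholesterol genes lay left of 0 in all but 1 gene, with a median of -0.72, while all genes centered on 0.

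Most calls held without normal liver 3, while the median log2 fold change moved from 0.77 to 0.58. Without that sample, 15 of the 26 genes were called, 13 higher and 2 lower, when 24.5% of all genes were called. All 15 were among the 16 called with every array, and Pmvk was lost (limma adjusted p = 0.0543). The log2 fold change of Hmgcs1 was then 1.78, that of Sqle 1.41 and that of Lss 2.53. The SE moved as well, from 0.42 to 0.21 for Hmgcs1 and from 0.48 to 0.18 for Sqle, and stayed at 0.16 for Lss. Leaving out a tumor cost more calls, with 9 genes called without tumor 1, 9 without tumor 2 and 10 without tumor 3. Over all 24901 tested probes, 6330, 6032 and 7171 were called in these fits. With every array 8239 probes were called, and 5863 without normal liver 3. The SE of Sqle was 0.57, 0.58 and 0.59 in the fits without tumor 1, 2 and 3. Acat2, Hmgcs1, Mvk, Fdps, Lss, Lbr, Sc5d and Dhcr7 were called whichever single array was left out. Mvd was called in 5 of the 6 such fits, lost without tumor 1, and Mylip in 4, lost without normal liver 2 or tumor 2. Sqle and Nsdhl were called in 3 of the 6, lost without any 1 tumor. Fdft1, Cyp51 and Hsd17b7 were called in 2 of the 6, lost without any 1 tumor and also without normal liver 2 for Fdft1 and Cyp51 or normal liver 1 for Hsd17b7. Pmvk was called in 1 of the 6, the fit without normal liver 1. The criteria of the study's methods (the methods' t-test at p under 0.05, means at least 2-fold apart and 1 of the means over 1.0) took 10 of the 26 genes, against 9.12% of all genes, 9 of them higher (4.66% of all genes) and 1 lower (4.46%). The test was run there without pairing, because the labels do not tie a tumor to a normal liver. Paired by number, the form the methods name, it took 7 genes, when it took 1599 probes over the whole array against 2036 without pairing. With the dim probes kept in the adjustment, 7 genes were called, 6 higher and 1 lower, when 4674 of 55681 probes were called.

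Among the tumors the order of samples was also shared between genes. Tumor 2 was the highest tumor in 0 of the 26 genes, against 28.0% of all genes, and the lowest in 18, against 29.6%. Tumor 1 was the highest in 15 genes, against 37.3% of all genes, among them Hmgcs1, Mvk, Mvd, Sqle and Lss, and tumor 3 in the other 11, against 34.7%, among them Fdps, Nsdhl, Sc5d and Dhcr7. These ranks are descriptions over genes of the same 3 arrays and were not tested.

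Where a gene had several probes they mostly moved alike, on an array where 33.1% of all tested probes were called. The second probe of Mvk gave a log2 fold change of 1.11 and that of Pmvk 0.71, both called by limma. A second, much dimmer probe of Hmgcs1 was well above background in 0 of 3 normal livers, so no fold change is given for it. Hsd17b7 was the exception, since its probes on the RefSeq transcript gave 0.89 and 0.73 and passed, while a dimmer probe designed on another transcript gave -0.26 and did not (limma adjusted p = 0.428). With the mean of its probes in place of the brightest, Hsd17b7 was no longer called (log2 fold change 0.46, limma adjusted p = 0.172, when 16 alternatives ran from 0.007 to 0.172). Of the 3 probes of Ggps1, which gave -0.18, -0.34 and -0.51, the second was called (limma adjusted p = 0.0438). The second probe of Fdft1 gave 0.65 and did not pass, and those of Lbr and Mylip were too dim on all 6 arrays to be tested.

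Other genes around the pathway were read from 7 lists with 78 tested genes, of which 38 were called, 17 higher and 21 lower, and the counts below stand beside 34.2% of all genes called, 13.1% higher and 21.0% lower. Under spike-in scaling 23 were called, 60.9% of them higher, against 44.7% of the calls with all arrays scaled by their 75th percentile and 58.8% with quantile normalization. In the supply and other uses of acetyl-CoA, 3 genes rose and 3 fell of 8. Acly, which makes cytosolic acetyl-CoA from citrate, rose from 69.4 ± 11.4 to 159.6 ± 19.9 (mean ± SD of the expression value, n = 3 in each group; log2 fold change 1.21, limma adjusted p = 0.00395). Acat3 fell by 1.204 and Acat1, the mitochondrial thiolase, by 0.996 on the log2 scale. Among electron donors and sterol-binding partners 2 rose and 2 fell of 9, with Cyb5a, which passes electrons to Sc5d and Msmo1, at -1.11 and Pgrmc1, a heme-binding partner of Cyp51, at -0.95. Tmem97, which binds sterols, rose by 0.52, and its call held in 1 of the 6 fits that left out 1 array.

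In the list of Srebp processing and sterol-regulated degradation 1 gene rose and 7 fell of 14, against 13.1% and 21.0% of all genes. Mbtps2, the second protease that cuts Srebp, rose by 0.80 on the log2 scale from a low level (limma adjusted p = 0.00502), but was not called with normexp background correction. Srebf1, which encodes the Srebp of fatty acid synthesis, fell by 0.58 (limma adjusted p = 0.0303), a call that held in 1 of the 6 fits without 1 array. The ubiquitin ligases Marchf6, which acts on squalene epoxidase, and Syvn1 fell by 0.997 and 0.776, and the call of Syvn1 held in 2 of those 6 fits. Srebf1 and Syvn1 were also not called with quantile normalization, with spike-in scaling or without the filter on dim probes. The Srebp1 lipogenic targets had 4 of 10 genes higher and 1 lower, and a median log2 fold change of 0.68. Pnpla3 rose by 3.20, with 2 of 3 normal livers well above background for its probe and a log2 fold change of 1.65 with normexp. Gpam, the first acyltransferase of glycerolipid synthesis, rose by 1.75 and Fasn, fatty acid synthase, by 1.23, while Mlxipl, which encodes the carbohydrate-sensing factor ChREBP, fell by 0.87 on the log2 scale. Normal liver 3 was the lowest normal liver in 3 of these 10 genes, against 35.9% of all genes, with a median log2 difference of -0.06 from the other 2.

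In sterol export, esterification and oxysterols, 3 genes rose and 5 fell of 14, against 13.1% and 21.0% of all genes, and normal liver 3 was the lowest normal liver for 0 of the 14, against 35.9% of all genes. Cyp7b1, an oxysterol hydroxylase, fell by 5.09 on the log2 scale, with 0.866, 23.4 and 35.2 in the tumors against 291.6, 265.2 and 363.3 in the normal livers (SE 1.33, limma adjusted p = 0.0292), a call lost on leaving out any 1 normal liver. The size rested on tumor 1, without which the log2 fold change was -3.40 (limma adjusted p = 7.75e-04). Cyp39a1, a hydroxylase of 24-hydroxycholesterol, rose by 3.43 (limma adjusted p = 6.62e-04), and Cyp27a1, the mitochondrial sterol hydroxylase, fell by 2.72. Soat1, an acyltransferase that esterifies cholesterol, was well above background in 2 of 3 tumors, so that its fall of 1.13 is uncertain in size (-0.47 with normexp and -0.77 without tumor 2), and it was called in 1 of the 6 fits without 1 array. In intracellular sterol transport 3 rose and 1 fell of 9, with Gramd1b at 1.49, Npc2, a sterol carrier of the lysosome, at 0.77, Gramd1a at 0.58 (called in 2 of the 6 fits without 1 array) and Stard5 at -0.84. In the isoprenoid branch and prenylation 1 rose and 2 fell of 14, beside 13.1% and 21.0% of all genes, with a median log2 fold change of -0.08. Its called genes were Srd5a3, of dolichol synthesis, at 0.45, Rabggta, a subunit of the Rab prenyltransferase, at -0.65, and Icmt, the methyltransferase of prenylated proteins, at -0.32, and each held in at most 2 of the 6 fits without 1 array.

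**Figure D4:**
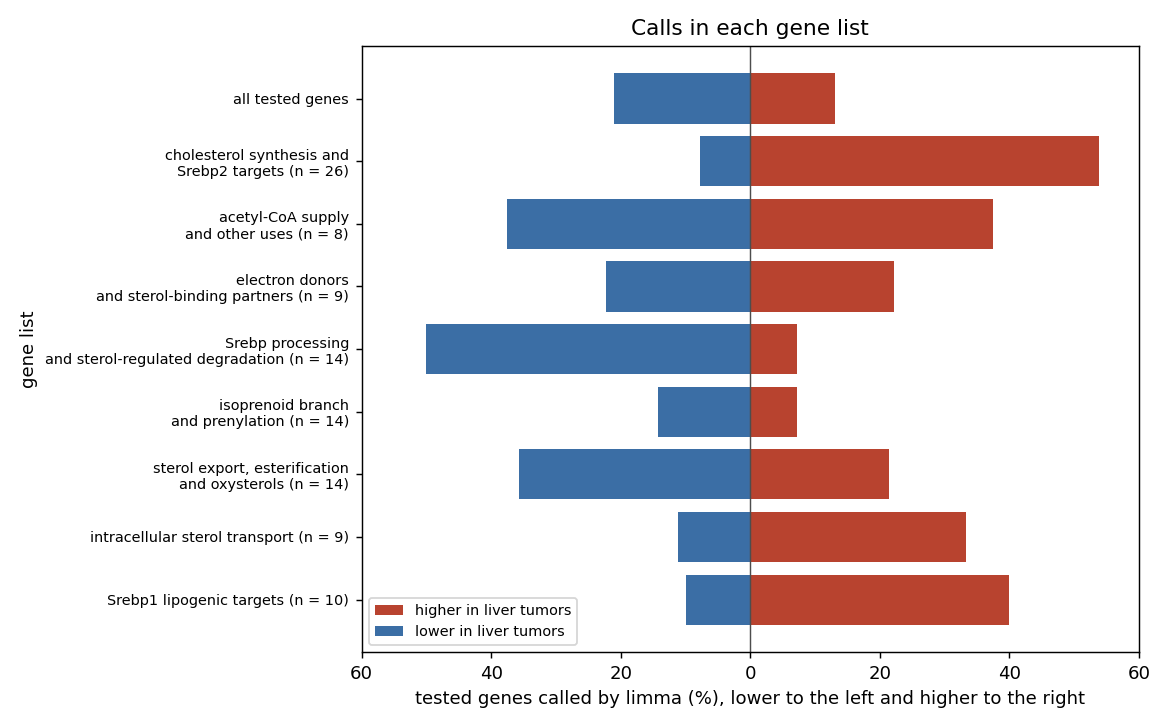
Percent of tested genes called by limma in each gene list, higher in liver tumors to the right (red) and lower to the left (blue), with the number of tested genes in parentheses and all 18567 tested genes at the top. The cholesterol genes had 14 higher and 2 lower of 26, and the list of Srebp processing and degradation had 1 higher and 7 lower of 14.

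The tissues were liver by their markers, and some markers of other cell types differed between the groups. The counts below stand beside 34.2% of all genes called, 13.1% higher and 21.0% lower. Of 9 tested hepatocyte markers 1 was called, Apoa1, which was higher, and their summed expression value was 8703 to 9543 in normal livers and 8624 to 8893 in tumors. Of 10 macrophage markers 7 were lower in tumors, and the median log2 fold change of the 10 was -1.10. Their sums were 111 to 190.2 in normal livers and 57.8 to 95 in tumors. Their median log2 difference of normal liver 3 from normal livers 1 and 2 was 0.49. Of 9 stellate cell and fibroblast markers 2 were higher and 4 lower in tumors, and their median log2 fold change was 0.29. Their sums were 86.8 to 103.6 in normal livers and 29.5 to 49.3 in tumors, and a sum is weighted toward the brightest probes. Normal liver 3 was the lowest normal liver in 8 of the 9, against 35.9% of all genes. The median log2 difference of normal liver 3 from the other 2 was -0.27. Of 9 endothelial markers 3 were lower, with sums of 109.1 to 122.7 and 84.4 to 93.7 and a median log2 fold change of -0.008. Of 10 lymphocyte markers 5 were tested and 1, Cd4, was higher, with sums of 66.5 to 70.5 and 141.6 to 245.5, most of it from Cd4, while Cd8a was near background on all 6 arrays. Sums for cholangiocyte markers were 2.62 to 3.38 and 2.27 to 2.51, with Muc1 near background on all 6 arrays, and for neutrophil markers 6.24 to 8.2 and 5.66 to 18.6, with Mpo likewise. The part of these cells in the results was not tested, and in bulk tissue fewer cells of a type and less RNA per cell cannot be told apart. Because the normal livers were hybridized on slide 1 and the tumors on slide 2, effects of the slide and of the tissue cannot be told apart, and local background had medians of 42 to 45 for the normal livers and 22 to 23 for the tumors.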

How the data were processed

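Signal was measured on 6 arrays, 3 normal livers and 3 liver tumors. For each array the authors deposited the processed signal intensity of Agilent Feature Extraction, version 10.7.3.1 per the file headers and 12.0.3.1 in the submitters' processing notes, background subtracted and spatially detrended, with the mean signal and local background of each spot. A table of ratios to each array's 75th percentile, also deposited by the authors, was used as an alternative. Each array had 62976 spots, 42.7% to 46.7% of the spots were well above background, none was saturated, and precision is limited by how many arrays there were.

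Control and outlier spots were left out, log2 of the signal minus log2 of the 75th percentile over all spots was taken, and spots of 1 probe were averaged. Probes that all 3 arrays of either group measured well above background, 24901 of 55681, were compared with limma 3.58.1 in R 4.3.3 (lmFit and eBayes, two-sided, Benjamini-Hochberg over all of them, threshold 0.05), of which 8239 (33.1%) were called. Tables were made in Python 3.11.15 (numpy 2.4.6, pandas 2.3.3), the methods' test with scipy 1.17.1 and the figures with matplotlib 3.10.9. A gene was represented by its brightest probe on average. Probes were named through RefSeq of GRCm38.p6 by accession (27235 probes), symbol (3581) or synonym (565), and 24300 kept the name of the array design. The bound for a gene not well above background in a group was taken against the mean, over that group's arrays, of the higher of the probe's own signal and the lowest signal well above background.

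All 27 genes are named, and of each wider list at most 4 called genes with the largest log2 fold change, some of which are not reported here. The genes and lists were chosen with earlier results of these data known. The fit was tested on simulated data. Alternatives were normexp with an offset of 50, quantile normalization, the 75th percentile without control spots, scaling by 8 spike-in probes, no filter on dim probes, a filter on all 6 arrays, the mean of a gene's probes, eBayes with a trend, a replicate block, the methods' t-test, unpaired and paired by number, with a 2-fold change of means and a value above 1.0 in either group, and leaving out each array.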

Additional observations from a re-analysis of the deposited data

How the results depend on the processing

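The directions of all 26 genes held under each of the 16 alternatives fitted with limma. Changes of filter, the replicate block and eBayes with a trend left each log2 fold change unchanged and could not alter a direction. The deposited ratios held nearly the same values as the main fit. The median log2 fold change ran from 0.70 to 0.94 over the alternatives that kept every array, and from 0.58 to 0.89 with 1 array left out. Scaling by the spike-in probes, whose log2 level was 0.18 lower in tumors, moved the median of all genes from -0.13 to 0.05. The median of the cholesterol genes moved to 0.94. Such scaling shifts every gene of an array by the same amount, so the distance between the medians could not change. Over all probes 5144 were then called, 61.7% of them higher, against 37.8% of the 8239, and 23 genes of the wider lists. The number of cholesterol genes called lower was 1 under that scaling.

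Without a filter on dim probes 4674 of 55681 probes were called, with 7 cholesterol genes (6 higher, 1 lower) and 20 genes of the wider lists. With 1 array left out, 4954 to 7171 probes, 9 to 16 cholesterol genes (7 to 14 higher, 1 to 2 lower) and 26 to 30 genes of the wider lists were called. The methods' t-test with its criteria took 2036 probes and 10 cholesterol genes (9 higher, 1 lower) with 10 genes of the wider lists, and after Benjamini-Hochberg adjustment 1664 probes and 8 cholesterol genes (7 higher, 1 lower) with 10 of the wider lists. Insig1, Srebf2 and Idi1 passed with normexp and with spike-in scaling, and Idi1 ran from an adjusted p of 0.0376 to 0.238 over the alternatives.

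The replicate numbers in the titles were not taken to pair the samples, because the labels do not tie a tumor to a normal liver. Deviations from the group means correlated at 0.07, 0.13 and 0.05 for same-numbered samples, and at -0.139 to 0.055 for differently numbered ones. Deviations from a mean of 3 arrays constrain each other, so these values cannot decide whether the samples were paired. With the number as a replicate block in limma, 7021 probes, 15 cholesterol genes (13 higher, 2 lower) and 31 genes of the wider lists were called, and Pmvk was lost (adjusted p = 0.0601, 0.0111 to 0.129 over all alternatives). The methods' t-test paired by number took 1599 probes and 7 cholesterol genes (6 higher, 1 lower) with 9 of the wider lists, and after adjustment 1 probe and 0 cholesterol genes (0 higher, 0 lower) with 0 of the wider lists. With 3 arrays in a group, depth of signal limited Npc1l1 to a bound.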
